A study of Mus musculus with 2 samples.

Results

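Expression of 8 genes, most of them typical of cerebellar granule cells, was examined in postpartum mouse brain: the zinc-finger transcription factor genes Zic1, Zic2 and Zic4, the cerebellin genes Cbln1, Cbln2 and Cbln3, the transcription factor gene Neurod1 and the protocadherin gene Fat2. The genes were taken by name, and every probe of each gene was kept, which gave 14 of the 41174 probes of the array and 8 of 27962 gene names. Fat2 was not found under that symbol and is the gene listed as Fath2, a synonym in the RefSeq gene table, and without it 13 probes of 7 genes remained. The samples were brains of C57BL/6J females aged 8 weeks on postpartum day 0. TDAG51-/- dams, which lack TDAG51 (Phlda1), were compared with TDAG51+/+ dams (first array) and with TDAG51-/-Tg2 dams (second array), which lack endogenous TDAG51 and carry a TDAG51 transgene. The transgene is driven by the BAI1-AP4 promoter, which the study describes as active chiefly in cortex and hippocampus, and TDAG51-/-Tg2 is a single transgenic line. The TDAG51-/- sample was in Cy3 and the control in Cy5 on both arrays, without a dye swap, so that dye and genotype cannot be told apart. The labels give neither the number of dams in a sample nor whether both TDAG51-/- channels hold the same RNA. With 1 array for each comparison, the spread between dams was not measured, and no difference below could be tested across animals.

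Granule cells are the small excitatory neurons that fill the inner layer of the cerebellar cortex, and their axons, the parallel fibers, synapse on Purkinje cells. Zic proteins are made in granule cell precursors and remain in adult granule cells, and Neurod1, a basic helix-loop-helix factor, is needed for granule cells to differentiate and is also used in the dentate gyrus. Granule cells secrete Cbln1, which links the parallel fiber to the Purkinje cell. Cbln3 is made in granule cells and needs Cbln1 to be secreted, whereas Cbln2 is known mainly from neurons outside the cerebellum. Fat2 is a giant protocadherin of granule cells and their parallel fibers.

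The probes are the only sequences through which these genes were measured, and the first 30 of their 60 bases are given 5′ to 3′ for 7 of the 8 genes, so that the probes of a gene can be told apart. The sequences and positions of the 3 Cbln2 probes are not given here. Probe 1 of a gene is the brighter one, and capitals mark bases that the other probe of the gene also holds.
Zic1 probe 1: ATCCGCATGTAAAGGGTCTGGTTTATTCAT
Zic1 probe 2: aattcctagtttccatatttATCCGCATGT
Zic2: cttccttttccacggtgattttaacggctt
Zic4 probe 1: gaaggggaaaaaagttgttgtgtatatttg
Zic4 probe 2: gggaaagtgcgaagcccacgccaccgcttc
Neurod1: tttgttgtgattttgtacagaatttttaat
Cbln1 probe 1: caaggaggttcttcgggacgcttcttcttc
Cbln1 probe 2: gaacatcgggaacaactttgactcagaacg
Cbln3 probe 1: cacagacttaaaatctcaagatgatgtttt
Cbln3 probe 2: acattctgcaggtaaactgggacagtcaga
Fat2: tagccaggagcattggtgtcgacacccaag
The probes of Zic1 overlap by 40 bases on the array's assembly mm7 (chr9:90989326-90989385 and chr9:90989346-90989405, minus strand) and are therefore close to a repeat of the same measurement. The probes of Zic4 (chr9:91017892-91017951 and chr9:91007466-91007525, plus strand) start 10426 bases apart, those of Cbln1 (chr8:86059880-86059939 and chr8:86062161-86062220, minus strand) 2281 bases apart and those of Cbln3 (chr14:50747308-50747367 and chr14:50749703-50749762, minus strand) 2395 bases apart. Zic2 was measured at chr14:116884204-116884263 on the plus strand, and on the minus strand Neurod1 was measured at chr2:79297180-79297239 and Fat2 at chr11:55210479-55210538. The exon and the coding part or UTR in which each probe lies were not determined here. Over 84 pairs of probes for different members, the longest shared run was 9 bases, so that no long stretch was common to the probes of the Zic or the cerebellin genes.

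Signals are given as the mean intensity of the spot before correction, and ratios as TDAG51-/- over the control on the log2 scale after background correction and dye normalization, on which 1 is a 2-fold difference. The scanner saturates at 65267, and a fold is given as a lower bound where the dimmer channel was near background. Where the brighter channel was saturated, no fold is given but the log2 ratio after dye normalization, whose size at the saturated end of the scale depends on that normalization, with the values under other scalings beside it. Over the 43379 spots of each array that are not controls, the median signals lay between 336 and 385 in the 4 channels. The spot-to-spot SD of the log2 ratio of a probe had a median of 0.063 (first array) and 0.065 (second array). It was taken over the 245 probes with at least 5 spots. Each member probe had 1 spot, so this technical SD comes from other probes and is not the full error of a member's ratio. Probes of the same gene could differ by more, as given below. The Phlda1 probe (NM_009344) was 17.3-fold lower in TDAG51-/- than in TDAG51+/+, with signals of 350.5 and 7283, whereas on the second array it read 44.1 in TDAG51-/- and 50.5 in the sample labelled TDAG51-/-Tg2, neither well above background. The TDAG51-/- channels thus differed by -2.79 on the log2 scale at this probe (second array minus first), and the cause was not tested. That probe therefore does not check the transgene label, and the sources do not say whether its target lies in the transgene.

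Both controls had less of most granule cell genes than TDAG51-/- brain and more of Cbln2. All 14 member probes were detected on each array, that is, 1 or both channels were well above background. In the comparison with TDAG51+/+, 9 of the 14 were at least 2-fold higher, where 4.9% of all detected probes were, and 0 were at least 2-fold lower, where 4.42% were. In the comparison with TDAG51-/-Tg2, 9 of 14 were at least 2-fold higher against 4.72% of all detected probes, and 0 were at least 2-fold lower against 3.86%. The same 9 probes were past 2-fold in both comparisons, against 2.69% of the probes detected on both arrays. They belong to Zic1, Zic2, Zic4, Neurod1, Cbln1, Cbln3 and Fat2. Counted by the brightest probe of each gene, 6 of 8 genes were at least 2-fold higher in each comparison, where 4.84% and 4.69% of all genes were. The 8 genes had a median log2 ratio of 1.68 with TDAG51+/+ as the control and of 1.97 with TDAG51-/-Tg2, whereas the median over all detected probes was 0.01 in each comparison. Both comparisons share the TDAG51-/- genotype and its dye, and the second is therefore not an independent repeat of the first.

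**Figure D1:**
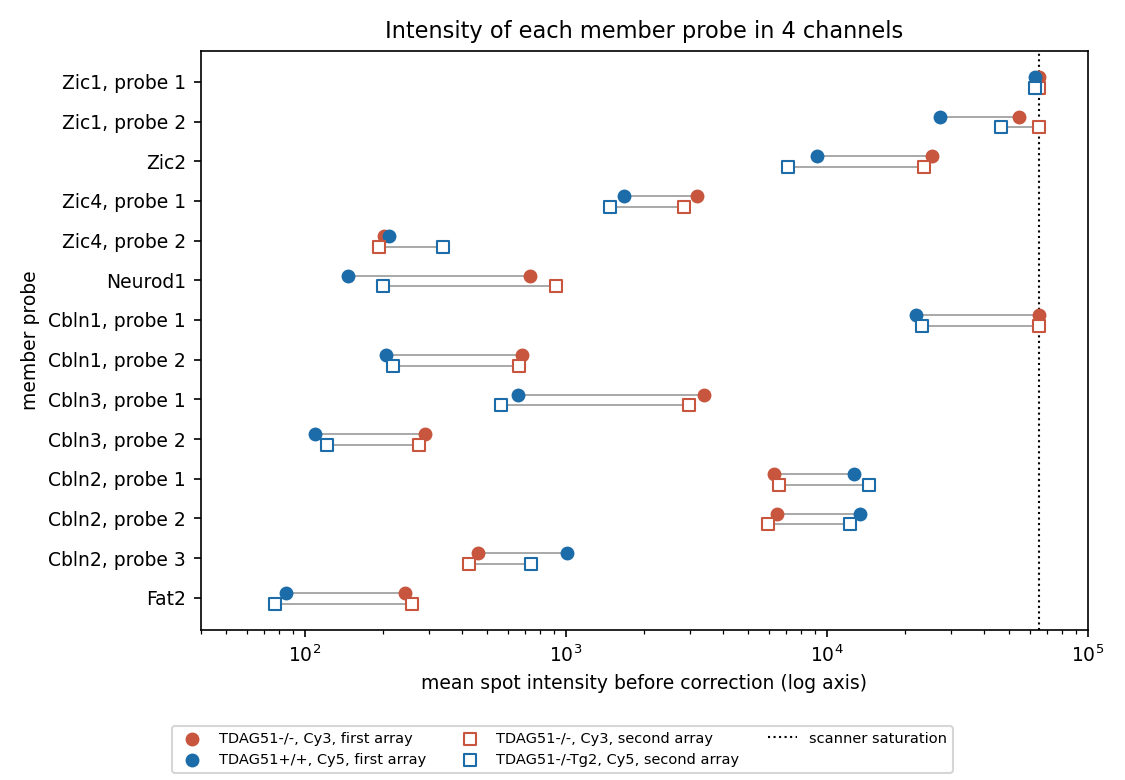
Mean spot intensity before correction (log axis) of the 14 member probes in TDAG51-/- (red) and in TDAG51+/+ or TDAG51-/-Tg2 (blue), with circles for the first array, squares for the second and a dotted line at scanner saturation. The TDAG51-/- signal lies to the right of both controls for Zic2, Neurod1, Cbln1, Cbln3 and Fat2 and to the left for the 3 Cbln2 probes, while the Zic1 probe 1 signals crowd at saturation.

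Zic1 was the member with the least room for measurement. Probe 1 (NM_009573) was saturated in TDAG51-/- on both arrays, at 65283.6 on each, and read 62723.8 in TDAG51+/+ and 63108.1 in TDAG51-/-Tg2, so that all 4 channels lay at or just under saturation. Its log2 ratio was 0.81 against each control, but 0.21 and 0.23 when arrays were centred on the median and 0.06 and 0.05 without normalization, so that the difference at this probe rests on the dye normalization. Probe 2 read 54699.8 in TDAG51-/- and 27163.6 in TDAG51+/+, a 3.21-fold higher ratio. On the second array it was saturated in TDAG51-/- at 65283.8 and read 46743.8 in TDAG51-/-Tg2, with a log2 ratio of 1.22. That value was under 2-fold with median centring (0.67) and without normalization (0.48). Zic1 was above both controls with probe 2 under each scaling. With probe 1 the values were above 0 too, but without normalization they were smaller than the spot-to-spot SD. The size of the difference at probe 1 could not be measured because of saturation.

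Zic2 (NM_009574) was read within the scanner's range in all channels. Its intensity was 25327.7 and 23607.7 in TDAG51-/-, 9213 in TDAG51+/+ and 7094 in TDAG51-/-Tg2, so the TDAG51-/- channels were close to each other and well above both controls. TDAG51-/- exceeded TDAG51+/+ by 3.98-fold (log2 ratio 1.99) and TDAG51-/-Tg2 by 4.78-fold (2.26), and the ratio stayed above 2-fold under every correction and normalization tried, the lowest being 1.46 and 1.73 without dye normalization.

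The probes of Zic4 gave different results. Probe 1 (NM_009576) read 3194 in TDAG51-/- and 1667 in TDAG51+/+, and 2830.4 in TDAG51-/- and 1480.5 in TDAG51-/-Tg2. It was 2.25-fold and 2.27-fold higher, and 0.93 on the log2 scale in each comparison without dye normalization, which is just under 2-fold. Probe 2 (AK028305) read 202 in TDAG51-/- and 211 in TDAG51+/+, with a log2 ratio of 0.01 that turned to -0.03 with the scanner's ratio, -0.02 with the deposited one and -0.07 without normalization. On the second array it read 193 in TDAG51-/- and 339 in TDAG51-/-Tg2, a log2 ratio of -0.62. The probe that carries the RefSeq accession was thus higher in TDAG51-/-, and the probe designed on the cDNA clone was not. Zic1 and Zic4 lie on opposite strands, and the full extent of the RefSeq gene models of Zic4 reaches into the start of Zic1.

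Neurod1 (NM_010894) read 728 and 922 in TDAG51-/-, 147 in TDAG51+/+ and 200.5 in TDAG51-/-Tg2. TDAG51-/- exceeded TDAG51+/+ by 4.91-fold (log2 ratio 2.29) and TDAG51-/-Tg2 by 4.98-fold (2.32). Both TDAG51-/- channels were far above both controls, and of all members Neurod1 differed most between the TDAG51-/- channels, by 0.35 on the log2 scale. With the scanner's own background correction the log2 ratios were 2.90 and 2.80.

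Cbln1, the granule cell ligand of the parallel fiber synapse, was higher with both of its probes. Probe 1 (NM_019626) was saturated in TDAG51-/- on both arrays (65283.7 and 65283.6) and read 22061.5 in TDAG51+/+ and 23131.6 in TDAG51-/-Tg2, with log2 ratios of 2.24 and 2.18 after dye normalization and of 1.72 and 1.68 with median centring. The dim probe 2 was free of saturation and read 683 and 664 in TDAG51-/-, 206 in TDAG51+/+ and 219 in TDAG51-/-Tg2. Its ratio was 3.42-fold and 3.33-fold higher. The controls differed from each other by 0.06 and -0.01 on the log2 scale (TDAG51-/-Tg2 minus TDAG51+/+), so the level of Cbln1 was nearly equal in TDAG51+/+ and in the sample labelled TDAG51-/-Tg2. Without dye normalization the log2 ratio of probe 1 against TDAG51+/+ was 1.57.

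Cbln3, the partner of Cbln1 in secretion, had the largest ratios in both comparisons among the members whose brightest probe was not saturated, so that it cannot be ranked against Cbln1 and Zic1. Probe 1 (NM_019820) read 3403 and 2984 in TDAG51-/-, 656 in TDAG51+/+ and 564 in TDAG51-/-Tg2. TDAG51-/- exceeded TDAG51+/+ by 5.88-fold (log2 ratio 2.56) and TDAG51-/-Tg2 by 6.07-fold (2.60). The dimmer probe 2 read 289.9 and 276 in TDAG51-/- and 110.0 and 122 in the controls, and it was 2.66-fold and 2.51-fold higher. Both probes were past 2-fold, with ratios 1.15 and 1.28 apart on the log2 scale. The offset of the background correction pulls dim probes towards 0, and without it probe 2 had log2 ratios of 1.96 and 1.80. With the scanner's ratio Neurod1 had the larger value against TDAG51+/+ (2.90 compared with 2.64) and Fat2 against TDAG51-/-Tg2 (3.17 compared with 2.74), so the place of Cbln3 also depended on the background correction.

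Cbln2 (NM_172633) was lower in TDAG51-/- with all 3 of its probes, of which probes 1 and 2 share a run of 20 bases and are not separate measurements. Probe 1 read 6304 and 6580.5 in TDAG51-/-, 12764.2 in TDAG51+/+ and 14514.2 in TDAG51-/-Tg2. It was 1.49-fold and 1.59-fold lower. Probe 2 read 6458 and 5951 in TDAG51-/- and 13451.4 and 12316.9 in the controls, and was 1.52-fold lower in each comparison. Probe 3, the dimmest, read 464 and 428 in TDAG51-/-, 1015 in TDAG51+/+ and 734 in TDAG51-/-Tg2, and was 1.94-fold and 1.45-fold lower. All 6 values were below 0 and under 2-fold. The 2-fold threshold was crossed by probe 3 against TDAG51+/+ without the offset (log2 ratio -1.03) and with the scanner's or the deposited ratio (-1.08 in each). Without dye normalization it was crossed by 3 probes against TDAG51+/+ and by 2 against TDAG51-/-Tg2. Every Cbln2 probe was below 0 under each of these corrections, opposite in direction to both other cerebellins.

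Fat2 (XM_888554) was dim in all channels. It read 243 and 259 in TDAG51-/-, 84.8 in TDAG51+/+ and 77.2 in TDAG51-/-Tg2, the last not well above background. TDAG51-/- exceeded TDAG51+/+ by 2.59-fold (log2 ratio 1.37) and TDAG51-/-Tg2 by at least 3.31-fold. The size of the difference depended on the treatment of the background more than for any other member: with the scanner's ratio the log2 values were 2.41 and 3.17. The TDAG51-/- channels were above both controls under each correction.

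**Figure D2:**
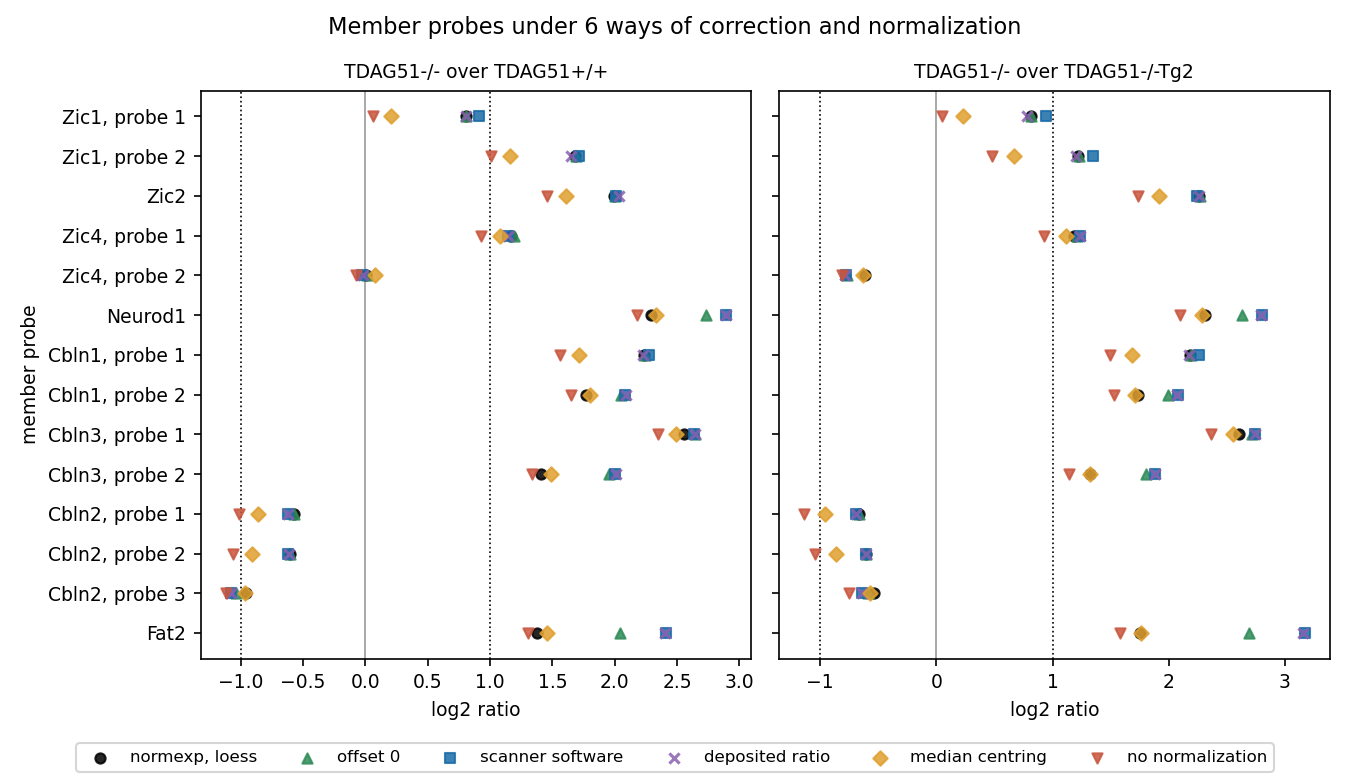
Log2 ratio of each member probe against TDAG51+/+ (left) and TDAG51-/-Tg2 (right) under 6 ways of background correction and normalization, with dotted lines at 2-fold. Zic2, Neurod1, Cbln1, Cbln3 and Fat2 lie beyond 2-fold under all 6, Zic1 probe 2 and Zic4 probe 1 drop under that line without dye normalization in at least 1 comparison, and of the 28 values only that of Zic4 probe 2 against TDAG51+/+ changes side of 0.

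The controls were also compared with each other through their Cy5 channels, which lie on different arrays of 1 slide, so that array and genotype cannot be told apart. For the 14 member probes the difference of TDAG51-/-Tg2 minus TDAG51+/+ had a median of 0.01 on the log2 scale and ran from -0.53 (Cbln2 probe 3) to 0.76 (Zic1 probe 2). It was at least 2-fold for 0 of 14 probes, against 6.8% of all detected probes. The median size of the difference was 0.22 for the members and 0.27 for all probes. Between the TDAG51-/- channels of both arrays, 0 of 14 probes were 2-fold apart, against 0.27% of all detected probes, and the members' values ran from -0.19 to 0.35. For 14 of 14 probes the sample labelled TDAG51-/-Tg2 lay nearer to TDAG51+/+, with which it shares the dye, than to TDAG51-/-. It does not share the dye with TDAG51-/-, and only the difference from TDAG51+/+ was taken across arrays. The share of all probes for which this holds was not computed, so the count cannot be read as particular to the members. The margin was narrow for Zic4 probe 2 (0.55 against -0.62) and for Cbln2 probe 3 (-0.53 in each).

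**Figure D3:**
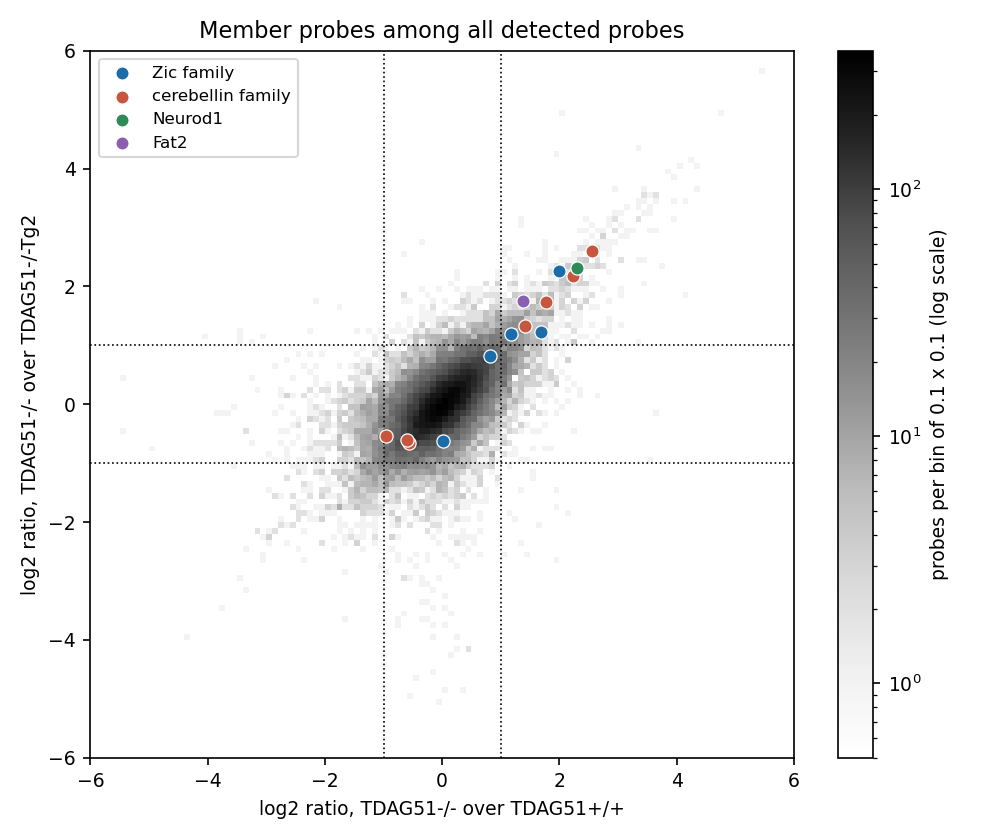
Log2 ratio of TDAG51-/- over TDAG51+/+ (horizontal axis) and over TDAG51-/-Tg2 (vertical axis) for the member probes in color and all probes detected on both arrays in gray (number per bin of 0.1 by 0.1), with dotted lines at 2-fold. Of the 14 member probes, 9 lie in the upper right corner beyond both lines, and 4 lie below 0 on the vertical axis, namely the 3 Cbln2 probes and the dim Zic4 probe; both axes share TDAG51-/-, which by itself tilts the cloud along the diagonal.

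Relatives of the members in the same gene families had ratios nearer to 0. Of 9 relatives, 8 were detected. Of these, 1 was at least 2-fold higher than in TDAG51+/+ and 0 exceeded TDAG51-/-Tg2 by 2-fold, where 4.84% and 4.69% of all genes did. The median log2 ratios of the relatives were 0.34 and 0.16. Cbln4, the fourth cerebellin, which like Cbln2 is known from forebrain neurons, read 1906 and 1636 in TDAG51-/- and 3669 and 3245 in the controls, and its log2 ratios of -0.69 and -0.72 were close to those of Cbln2. Zic5, which lies beside Zic2 with only 2610035F20Rik between them, exceeded TDAG51+/+ by 1.24-fold and TDAG51-/-Tg2 by at least 1.57-fold. Among the protocadherins, Fat1 (listed as Fath) had log2 ratios of 0.94 and 0.91, Fat3 of 0.38 and -0.45 and Fat4 of 1.30 and 0.81. Neurod2 and Neurod6, factors of forebrain excitatory neurons, had log2 ratios of 0.15 and -0.11 and of -0.49 and -0.68, unlike Neurod1, and Neurod4 was not well above background in any channel.

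Of the 5 synaptic partners of the cerebellins, 1 was at least 2-fold higher in TDAG51-/- in each comparison, where 4.84% and 4.69% of all genes were. At least 2-fold lower were 0 in each, where 4.59% and 3.87% of all genes were. The neurexins Nrxn2 and Nrxn3 are used by neurons throughout the brain. With their brightest probes they had log2 ratios of -0.12 and 0.62 against TDAG51+/+ and -0.14 and 0.14 against TDAG51-/-Tg2. Dimmer probes of Nrxn3 disagreed in direction, with 1.08 and -0.84 against TDAG51+/+ and 1.07 and -0.50 against TDAG51-/-Tg2. Grid1, a glutamate receptor subunit of the delta family that is expressed widely in forebrain, had log2 ratios of -0.25 and -0.24.

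Among 8 other granule cell genes, 4 were at least 2-fold higher in each comparison, where 4.84% and 4.69% of all genes were. At least 2-fold lower were 0 in each, where 4.59% and 3.87% of all genes were. The medians were 0.81 and 0.87. Gabra6, the GABA receptor subunit that marks mature granule cells, read 58569.8 and 59687.2 in TDAG51-/- and 5885 and 5853 in the controls, and was 14.7-fold and 15.2-fold higher. Barhl1, En2 and Pax6, transcription factors of granule cells and their precursors, had log2 ratios of 2.39, 1.46 and 1.28 against TDAG51+/+ and 1.77, 1.13 and 1.71 against TDAG51-/-Tg2. The other 4 were under 2-fold with their brightest probes. Gabrd, Grin2c and Cadps2 had log2 ratios of 0.26, 0.35 and 0.13 against TDAG51+/+ and 0.15, 0.61 and 0.45 against TDAG51-/-Tg2. Atoh1, a factor of granule cell precursors, had values of -0.49 and 0.14 at the edge of background. Dimmer probes had log2 ratios of 0.96 (Barhl1), 0.61 (Pax6) and 0.97 (Cadps2) against TDAG51+/+. Against TDAG51-/-Tg2 these probes had 0.92, 1.56 and 1.08. The remaining probes of Pax6 and Cadps2 were near background in the controls. Of 4 granule cell genes that cortex or hippocampus also uses, 0 were past 2-fold against TDAG51+/+, while 2 were higher and 1 was lower against TDAG51-/-Tg2. The lower one was Slc17a7, the vesicular glutamate transporter of granule cells and of cortical neurons, with log2 ratios of -0.99 and -1.40.

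Markers of other cells that a whole brain holds also differed in these comparisons. The tissue is a bulk sample, so more cells of a type and more RNA per cell cannot be told apart. Of 6 Purkinje cell genes, 4 were at least 2-fold higher than in TDAG51+/+ and 5 than in TDAG51-/-Tg2, where 4.84% and 4.69% of all genes were. Their medians were 2.13 and 2.06, close to those of the granule cell members. The Purkinje cell genes ran from Itpr1 (log2 ratios 0.49 and 0.35) to Ppp1r17, listed as Gsbs (3.67 and 3.58). Pcp2 was saturated in TDAG51-/- (65283.6 on each array) and read 15145.8 and 15332.9 in the controls. Of 6 striatal genes, 5 were at least 2-fold lower in each comparison, where 4.59% and 3.87% of all genes were (medians -1.89 and -1.97), and Ppp1r1b was the exception (-0.0031 and -0.20). Of 5 cortical genes, 3 were at least 2-fold lower in each (medians -1.04 and -1.43). Cux2 is listed under both 1700051K22Rik and Cutl2. It was higher (0.66 and 0.61) with the brighter entry, 1700051K22Rik, and the values of the Cutl2 entry are not given here. Of 4 olfactory bulb genes, 2 were at least 2-fold lower in each, led by Sp8 (-3.38 and -3.17), and 1 was at least 2-fold higher against TDAG51-/-Tg2. Of 5 genes of the medial habenula, where Zic genes are also expressed, 1 was past 2-fold against TDAG51+/+ and 0 against TDAG51-/-Tg2 (medians 0.15 and 0.28), and of 5 genes of the meninges, which express Zic genes too, 0 were in either (0.44 and 0.15). Of 4 housekeeping genes found, 1 was 2-fold lower than TDAG51+/+ and 0 were 2-fold below TDAG51-/-Tg2, and since 2 of the 4 were saturated in the controls, their median is not given.

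The summed intensity of the brightest probes, before background correction and dye normalization, gives a rough level of a list, and sums in Cy3 and Cy5 are not on a common scale. The 8 members summed to 169767 and 167751 in TDAG51-/- and to 109317 and 110170.0 in the controls. The 8 other granule cell genes summed to 86281 and 85507 in TDAG51-/- and to 29654.7 and 26566 in the controls, and the 6 Purkinje cell genes to 208068 and 213807 against 100494 and 99648. The 6 striatal genes summed to 44093 and 42241 in TDAG51-/- and to 156288 and 165621 in the controls, and the 5 cortical genes to 27767 and 22935 against 80556 and 81296. Zic1 and Cbln1 among the members and Pcp2 among the Purkinje cell genes were saturated in TDAG51-/-. The TDAG51-/- sums of both lists are therefore capped, and their difference from the controls is understated. In the cortical list 1 gene was saturated in TDAG51-/-Tg2, which caps that sum. All sums are led by the brightest genes of each list, and single genes of a list differed from its sum, as given above. The part that the makeup of the brain samples has in the members' ratios was not tested.

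**Figure D4:**
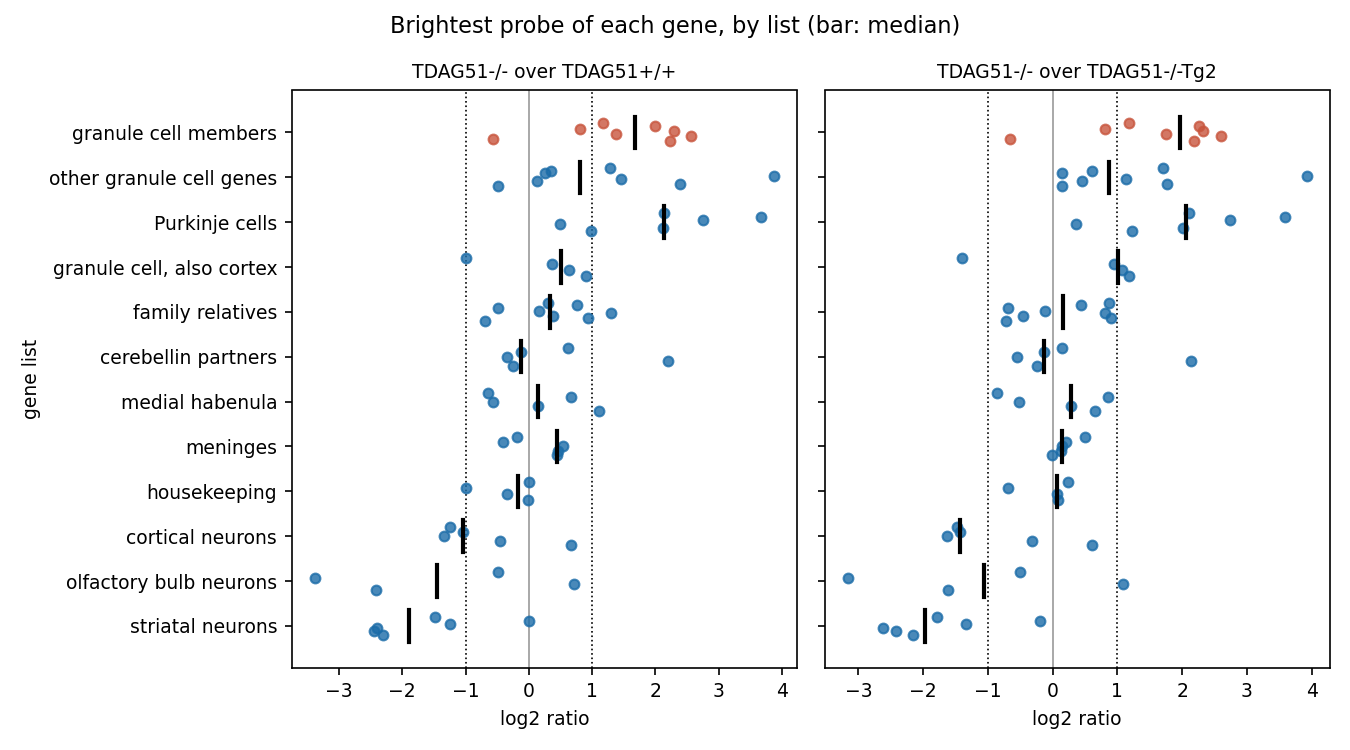
Log2 ratio of the brightest probe of each detected gene (points) by gene list, against TDAG51+/+ (left) and TDAG51-/-Tg2 (right), with a bar at the median of each list and dotted lines at 2-fold. The medians of the granule cell members (1.68 and 1.97, red) and of the Purkinje cell genes (2.13 and 2.06) lie above 2-fold in both panels, and those of the striatal, cortical and olfactory bulb genes lie below it on the lower side.

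The promoters of members that differed in the same direction were searched for short motifs, among them the E-boxes that factors of the Neurod1 family bind. RefSeq held 250 bases upstream of the start for 5 of the 8 members on GRCm38.p6. Those of Zic1 (chr9:91365769-91366018, minus strand), Neurod1 (chr2:79456637-79456886, minus strand) and Cbln3 (chr14:55884257-55884506, minus strand) are printed 5′ to 3′, as examples of starts with several GC boxes and of one without any. Capitals mark GGGCGG or its reverse complement CCGCCC.
Zic1: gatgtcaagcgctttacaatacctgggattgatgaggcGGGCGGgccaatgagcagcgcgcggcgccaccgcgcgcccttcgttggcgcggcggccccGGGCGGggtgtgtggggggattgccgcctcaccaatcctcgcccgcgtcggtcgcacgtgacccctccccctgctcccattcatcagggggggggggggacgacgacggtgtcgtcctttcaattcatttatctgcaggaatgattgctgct
Neurod1: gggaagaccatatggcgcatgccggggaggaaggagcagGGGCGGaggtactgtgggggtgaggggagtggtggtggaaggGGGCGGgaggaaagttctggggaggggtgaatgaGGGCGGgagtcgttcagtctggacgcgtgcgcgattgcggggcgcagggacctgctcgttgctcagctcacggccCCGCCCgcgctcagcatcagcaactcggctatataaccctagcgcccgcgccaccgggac
Cbln3: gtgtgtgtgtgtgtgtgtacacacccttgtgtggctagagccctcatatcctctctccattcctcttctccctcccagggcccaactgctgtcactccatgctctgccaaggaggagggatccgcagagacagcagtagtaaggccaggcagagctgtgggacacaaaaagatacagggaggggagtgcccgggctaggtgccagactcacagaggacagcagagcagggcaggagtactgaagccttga
Zic1 held 2 such motifs with a GC content of 66.0% and Neurod1 held 4 with 67.6%, whereas Cbln3 (57.6%), Zic4 (44.4%) and Fat2 (41.6%) held 0. Over all 32851 promoters of the table, 32.7% held the motif and the median GC content was 52.4%. The E-boxes CAGCTG and CAGATG (or CATCTG) were in 0 of the 5, as was TATAAA on either strand, where 13.0%, 14.4% and 12.4% of all promoters held them. The absence says only that these letters are not in the 250 bases. The starts of Zic1 and Zic4 in this table lie 3204 bases apart on opposite strands, although the longest Zic4 model begins further upstream and overlaps Zic1, and their brighter probes differed from the controls in the same direction.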

How the data were processed

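Brains of dams 8 weeks old on postpartum day 0 were hybridized to 2 two-colour Agilent arrays on the same slide. The authors deposited the output of Feature Extraction 9.5.3.1 with mean and background intensity, processed intensity, a log10 ratio of Cy5 over Cy3 and a p-value of the software's error model for the spot, and a table of log2 ratios whose values run as Cy3 over Cy5. The paper's text does not name a normalization. Probe coordinates are on mm7. Outlier spots (375 and 300) and controls got weight 0. Here, intensities were corrected by normexp (offset 50), normalized by loess within each array and averaged over spots in limma 3.58.1 (R 4.3.3, data.table in version 1.17.8), and single channels were scaled by Aquantile. Tables and figures used Python 3.11.15, numpy 2.4.6, pandas 2.3.3 and matplotlib 3.10.9. A probe was counted, at the study's 2-fold threshold, where the scanner marked 1 or both channels as well above background, and each gene stands with its brightest probe. The precision is limited by the number of arrays, which allowed no test across animals. The steps were tested on simulated data.

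The members and the 11 gene lists (62 genes, of which 61 were found) were chosen with earlier results of these data known. All 8 members were named with every probe, and of the other lists the highest, lowest and brightest genes, or any gene of the relatives, the cerebellin partners and the other granule cell genes. Alternatives were offset 0, the scanner's ratio and its p-value under 0.05, the deposited ratio, no normalization, median centring, other filters and other choices of probe. Counts and medians of the lists include some genes whose own values are not reported here.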

Additional observations from a re-analysis of the deposited data

How the results depend on the processing

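The count of member probes at least 2-fold higher was 9 in each comparison. It was 8 against TDAG51+/+ and 7 against TDAG51-/-Tg2 without normalization, and likewise without saturated probes. Against TDAG51-/-Tg2 it was 8 with median centring, and also with probes above background in both channels. Without Fat2 it was 8 in each comparison. With only the brightest probe of each gene it was 6 in each, a count over fewer probes. Under every other alternative tried it stayed at 9. The median log2 ratio of the member genes, 1.68 against TDAG51+/+ and 1.97 against TDAG51-/-Tg2, was 2.02 and 2.23 with offset 0, 2.14 and 2.25 with the scanner's ratio, 2.13 and 2.22 with the deposited ratio, 1.53 and 1.72 with median centring, 1.38 and 1.54 without normalization, and 1.39 and 1.27 as the median over all 14 probes. Against TDAG51-/-Tg2 it was 2.18 with probes above background in both channels, 1.75 without saturated probes and 1.86 with each gene's probes reduced to their median. Without Fat2, and likewise without Cbln2, it was 1.99 and 2.18, alternatives chosen after seeing the data, as were those for the lower counts. Probes at least 2-fold lower numbered 1 against TDAG51+/+ with offset 0, the scanner's ratio or the deposited ratio, and without normalization 3 against TDAG51+/+, 2 against TDAG51-/-Tg2 and 2 against both. Without normalization the median log2 ratio of all detected probes was -0.19 and -0.25. Of 28 ratios of single probes, 8 changed side of the 2-fold line without normalization and 1 under each of the other 4 corrections. The control comparison kept 0 probes past 2-fold under each alternative.

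Saturated TDAG51-/- signals limit what Zic1 and Cbln1 show, and signals near background limit Fat2. No paired analysis was possible because each comparison has 1 array. Leaving out a replicate was not possible for the same reason.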
